A study of Mus musculus with 4 samples.

Results

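The lysosome genes described here are 33 genes for the enzymes, membrane proteins and proton pump of the lysosome. They were chosen by name as a pathway, with earlier results of these data known. They were followed through all probe sets that the platform annotation gives to a member's symbol alone. Of the 33 genes, 32 had such probe sets, 70 in all, out of 18193 genes and 45037 probe sets on the array. The annotation lists none under the symbol Atp6v0c, the gene of the proteolipid ring of the pump, and that member was not analysed here.

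The lysosome is the acidic compartment in which cells break down material taken up from outside and worn parts of their own. Cathepsins cut proteins there, glycosidases and lipases take apart sugars and lipids, and the vacuolar proton pump, a rotary ATPase with a membrane sector and a cytosolic sector, keeps the lumen acid enough for them. Kupffer cells are macrophages that live in the liver, and they clear particles and dying cells through this route. The transcription factors Tfeb and Tfe3 are known to drive many lysosome genes together.

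The samples were 4 mixtures of Kupffer cells with SL4 cells, a mouse colon carcinoma line of C57BL/6 origin, with 1 array each. They were Dectin-2 knockout (Clec4n-/-) Kupffer cells in co-culture with SL4 cells, wild-type Kupffer cells in co-culture with SL4 cells, and the same knockout and wild-type pairs in separate culture. The Kupffer cells were sorted on 3 surface proteins, CD45, CD11b and the macrophage glycoprotein encoded by Adgre1, from 12-week-old female C57BL/6 mice described as naive. Each group used 100000 cells of each type, held for 8 hours. For separate culture the RNA of both cell types was mixed afterwards, in a proportion not given in the sources used here, so every array holds RNA of both. Whether animals were pooled is not given in the sources used here.

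Each value is a MAS5 signal intensity in linear units. A floor of 76.1, which is the median signal over all probe sets and arrays, marks the level under which ratios are not read. Between 10117 and 10187 genes per array lay above it. Clec4n, which encodes Dectin-2, lay under the floor in all 4 arrays: its brighter probe set read 8.19 in the knockout co-culture against 17.6 in the wild-type co-culture, and 8.29 in the knockout separate culture against 14.2 in the wild-type separate culture. Of 15 pan-macrophage and leukocyte markers 9 lay above the floor in at least 1 array, and Ptprc, Itgam and Adgre1, the genes of the 3 sorted surface proteins, lay under it in every array. Of 8 Kupffer cell markers 3 lay above the floor in at least 1 array, and 1 of them, Cd5l, in all. Clec4f, Vsig4, Timd4, Marco and Folr2 were under it throughout. Of 6 epithelial markers only Epcam passed the floor in any array, while 4 of 6 mesenchymal genes passed it in all. The 3 hepatocyte markers on the array, Alb, Apoa1 and Ttr, also passed it in all 4 arrays. No marker of neutrophils, T and B cells or sinusoidal endothelium passed it in any. With RNA of both cell types on every array, a change in one cell type, fewer cells of that type and less RNA per cell cannot be told apart in any result below.

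Most of the lysosome genes were well expressed. The brightest probe set of 30 of the 32 genes lay above the floor in all 4 arrays, Neu1 passed it only in the knockout co-culture, and Tfeb was under it in all. Of the 70 probe sets, 54 were above the floor in all arrays, 5 in some and 11 in none. Signals of different probe sets depend on their sequence, so levels are compared between arrays and not between genes.

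**Figure D1:**
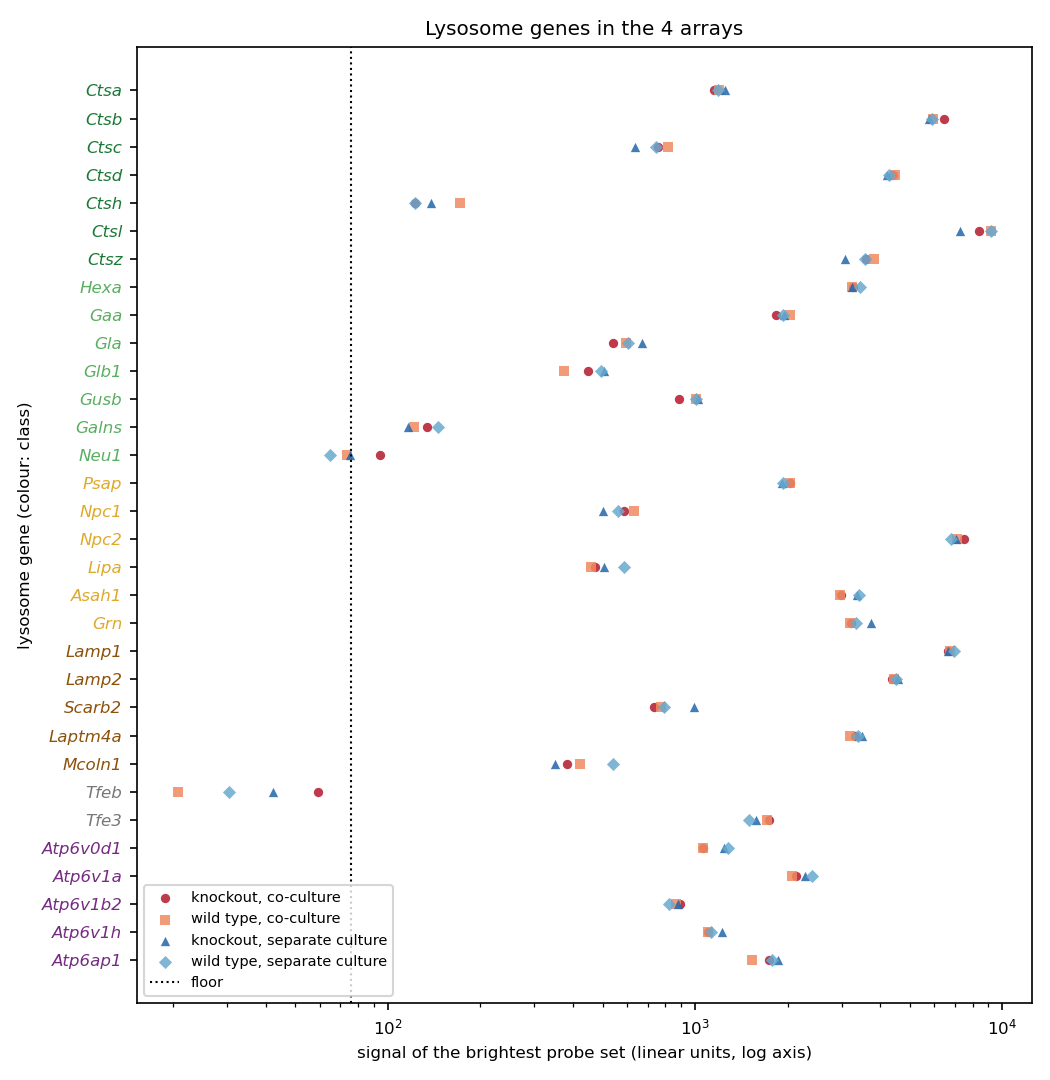
Signal of the brightest probe set of each of the 32 lysosome genes (linear units on a log axis), with a point for each of the 4 arrays and a dotted line at the floor of 76.1. For most genes the 4 points nearly coincide, and Tfeb lies left of the floor in all arrays.

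A sequence feature of some of these genes is the hexamer CACGTG, the core of the site that Tfeb and Tfe3 are known to bind. RefSeq promoter windows of build GRCm38.p6, running from 250 bases before to 50 bases after an annotated start, were at hand for 26 of the 33 genes, in 33 windows. CACGTG, which is its own reverse complement and so is read on both strands at once, stood in 10 of the 33 member windows, 30.3%, against 2349 of all 32851 windows, 7.15%. The longer palindrome TCACGTGA, which contains it, stood in 6 member windows, 18.2%, against 320 of all windows, 0.974%. By gene, CACGTG stood in 10 of the 26 members, 38.5%, against 8.09% of all genes with a window. The 10 genes were Ctsa, Ctsd, Ctsl, Gaa, Gla, Glb1, Lamp1, Mcoln1, Atp6v0d1 and Atp6v1a, from each functional class except lipid handling and the transcription factors. A match is only a stretch of letters, and binding was not measured. To show how differently the hexamer is placed, the 250 bases before the start follow for 5 of these genes, 5′ to 3′ on the gene's strand, with CACGTG in capitals.
Ctsd, chr7:142387828-142388077, minus strand: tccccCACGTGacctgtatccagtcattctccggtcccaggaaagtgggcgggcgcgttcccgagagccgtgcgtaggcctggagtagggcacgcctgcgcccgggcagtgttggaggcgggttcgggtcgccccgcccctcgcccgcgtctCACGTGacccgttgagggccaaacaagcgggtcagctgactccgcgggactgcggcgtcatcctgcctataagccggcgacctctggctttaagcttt
Gla, chrX:134601006-134601255, minus strand: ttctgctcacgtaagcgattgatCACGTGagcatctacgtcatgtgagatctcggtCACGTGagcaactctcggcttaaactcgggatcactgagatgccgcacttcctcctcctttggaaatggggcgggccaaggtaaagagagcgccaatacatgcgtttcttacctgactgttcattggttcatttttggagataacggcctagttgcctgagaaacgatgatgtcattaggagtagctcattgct
Lamp1, chr8:13158911-13159160, plus strand: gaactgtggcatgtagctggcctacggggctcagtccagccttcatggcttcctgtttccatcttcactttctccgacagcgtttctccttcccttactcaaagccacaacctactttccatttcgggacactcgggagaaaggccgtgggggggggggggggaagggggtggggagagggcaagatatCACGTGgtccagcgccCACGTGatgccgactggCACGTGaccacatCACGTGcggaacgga
Mcoln1, chr8:3500269-3500518, plus strand: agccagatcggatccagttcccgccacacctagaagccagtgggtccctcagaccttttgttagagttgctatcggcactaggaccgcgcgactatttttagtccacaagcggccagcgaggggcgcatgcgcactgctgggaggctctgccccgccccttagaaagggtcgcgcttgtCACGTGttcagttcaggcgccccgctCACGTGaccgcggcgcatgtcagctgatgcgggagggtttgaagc
Atp6v1a, chr16:44139260-44139509, minus strand: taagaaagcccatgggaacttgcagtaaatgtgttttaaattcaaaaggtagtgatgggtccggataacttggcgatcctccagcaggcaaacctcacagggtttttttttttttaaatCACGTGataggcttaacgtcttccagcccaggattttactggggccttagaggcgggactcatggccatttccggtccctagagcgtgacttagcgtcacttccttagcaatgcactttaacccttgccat

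Lamp1 carries 4 copies, which begin 61, 45, 28 and 15 bases before its start. In Mcoln1 there are 2, at 71 and 45 bases, in Ctsd 2, at 245 and 98 bases, and in Gla 2, at 227 and 194 bases, while Atp6v1a has 1, at 131 bases. Ctsd, Gla, Mcoln1 and Atp6v1a hold the longer palindrome in these bases, and Lamp1 does not.

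The design asked what 8 hours with tumour cells do to gene expression and how much of that needs Dectin-2. Among the lysosome genes the answer on these arrays was small in every comparison. By its brightest probe set, which stands for a gene unless another is named, no member was 2-fold higher or lower with co-culture or with genotype. In co-culture with knockout Kupffer cells 0 of 31 members above the floor passed 2-fold, beside 0.67% of 10444 genes that were 2-fold higher and 0.574% that were 2-fold lower. In co-culture with wild-type Kupffer cells it was 0 of 30, beside 0.701% higher and 0.538% lower of 10417 genes. Knockout over wild type gave 0 of 31 in co-culture, beside 0.144% of 10399 genes higher and 0.0962% lower, and 0 of 30 in separate culture, beside 0.0869% higher and 0.116% lower of 10362. With so few genes past 2-fold anywhere, a count of 0 among about 30 is near the background.

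A finer limit was a difference of 25% or more, taken as the higher value over the lower. With knockout Kupffer cells 1 of 31 members passed it, the lower Scarb2, in co-culture over separate culture, where 21.5% of all genes did, and with wild-type Kupffer cells 4 of 30, where 21.7% did. Those 4 were Ctsh, which was higher, and Glb1, Lipa and Mcoln1, which were lower. Among the 7631 genes whose mean log2 signal was at least 2 above that of the floor, 14.7% passed this limit in the knockout comparison and 14.2% in the wild-type one, and of the 28 members among them 1 and 3 did. By brightest probe sets no member passed it the same way in both genotypes, out of 30 measured in both. Dimmer probe sets of Scarb2 and Lipa, both lower, and of Atp6v1h, higher, did so, with their values given under each gene. Of 10224 genes 3.46% were that much higher in both and 5.58% that much lower, and of the 7631 bright genes 2.4% and 4.13%. The median log2 ratio of the members was -0.06 in knockout and -0.02 in wild type, and that of all genes was -0.02 in each.

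To use both genotypes at once, culture and genotype were fitted as additive terms across the 4 arrays with limma, on 10130 genes. The fit takes the disagreement between the genotypes' co-culture changes as its error, so it tests only a change that both share. It called 8.93% of all genes for culture at an adjusted p under 0.05, namely 339 higher and 566 lower in co-culture, and 0 of the 31 lysosome genes. At an unadjusted p under 0.05 there were 6 of 31 members and 21.6% of all genes. For the brightest probe set of every member the 95% interval of the co-culture difference lay inside 2-fold either way, and for 28 of 31 it lay inside 1.5-fold. With each probe set fitted separately, the second ones of Scarb2 and Atp6v1h had intervals that reached past 2-fold. They ran from -1.07 to -0.50 for Scarb2 and from 0.11 to 1.24 for Atp6v1h on the log2 scale. These intervals rest on an error borrowed across genes of like brightness, with 1 residual degree of freedom per gene. Without that intensity trend the fit called 5 genes in all, and 0 members.

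**Figure D2:**
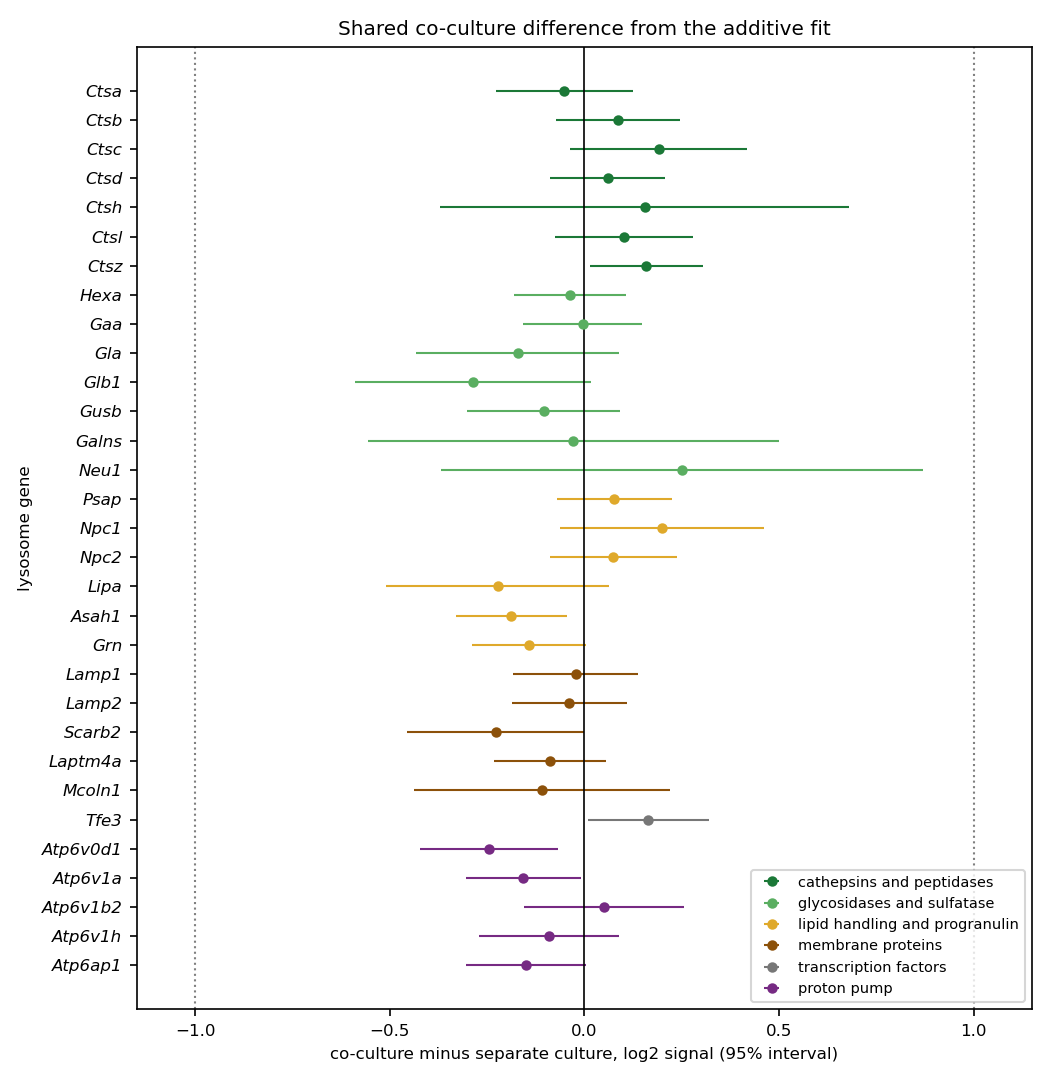
Co-culture minus separate culture on the log2 scale for 31 lysosome genes, each by its brightest probe set, from the additive fit of the 4 arrays. Points are estimates, bars are 95% intervals, colours are functional classes and dotted lines mark 2-fold; every interval lies between the dotted lines.

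The cathepsins, the proteases of the lysosome, stayed close to their level in separate culture. Ctsb, a cysteine protease with both endo- and exopeptidase action, read 6435 in the knockout co-culture and 5957 in the wild-type co-culture, against 5765 in the knockout separate culture and 5908 in the wild-type separate culture. Ctsd, the main aspartic protease, read 4390.5 (knockout) and 4461 (wild type) in co-culture, against 4211 (knockout) and 4284 (wild type) in separate culture. Both co-culture arrays were above both separate arrays in these probe sets, by small margins: the fitted log2 difference was 0.09 ± 0.08 (SE) for Ctsb and 0.06 ± 0.07 for Ctsd, with adjusted p = 0.587 and 0.696 by limma. For Ctsb the direction depended on the probe set: the third by brightness was lower in co-culture, at log2 ratios of -0.20 in knockout and -0.19 in wild type, and as the median over probe sets the fitted difference was -0.19.

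Ctsz, a carboxypeptidase, read 3604 (knockout) and 3807 (wild type) in co-culture, against 3079.6 (knockout) and 3572 (wild type) in separate culture. Its log2 difference of 0.16 ± 0.07 was the best supported of the class, at limma's adjusted p = 0.184, and both of its other probe sets pointed the same way in both genotypes. Ctsc, which activates granule serine proteases, read 756 (knockout) and 814 (wild type) in co-culture, against 636 (knockout) and 743 (wild type) in separate culture. In Ctsz and Ctsc alike the lowest array was the knockout separate culture, and both co-culture arrays lay above both separate ones.

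Ctsl, a cysteine endopeptidase, was also lowest in the knockout separate culture. It read 8407 (knockout) and 9164 (wild type) in co-culture, against 7268 (knockout) and 9196 (wild type) in separate culture, so that the cultures overlapped. Its genotype difference, knockout minus wild type, was -0.23 ± 0.09 on the log2 scale, with limma's adjusted p = 0.302, the lowest for genotype among the members. Ctsa, a serine carboxypeptidase that also protects neuraminidase and beta-galactosidase, had a co-culture difference of -0.05 ± 0.09 with signals between 1150.2 and 1252 in the 4 arrays.

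Ctsh, an aminopeptidase, was the dim cathepsin, and its arrays disagreed. It read 122 (knockout) and 171 (wild type) in co-culture, against 138 (knockout) and 122 (wild type) in separate culture. The wild-type co-culture was the high array. Its log2 ratio was -0.17 in knockout and 0.48 in wild type, and its second probe set gave -0.41 and -0.08, so the wild-type gain was not seen there.

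Among the enzymes of sugar chains, Hexa, a subunit of beta-hexosaminidase, read 3255 (knockout) and 3242 (wild type) in co-culture, against 3242 (knockout) and 3426 (wild type) in separate culture. Gaa, the acid alpha-glucosidase that digests glycogen, had a co-culture difference of -0.0047 ± 0.07 on the log2 scale. Glb1, the beta-galactosidase, had the largest fitted co-culture difference of the members, at -0.29 ± 0.15 with limma's adjusted p = 0.267. It read 448 (knockout) and 374 (wild type) in co-culture, against 504 (knockout) and 494 (wild type) in separate culture, so both co-culture arrays were below both separate ones.

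Gla, the alpha-galactosidase, read 539 (knockout) and 596 (wild type) in co-culture, against 673 (knockout) and 606 (wild type) in separate culture. Gusb, the beta-glucuronidase, read 889 (knockout) and 1003 (wild type) in co-culture, against 1024 (knockout) and 1007 (wild type) in separate culture. In each the co-culture arrays were the lower ones, although for wild type the gap was slight, with log2 ratios of -0.02 and -0.0052. The second probe set of Gusb overlapped, at 745 (knockout) and 746 (wild type) in co-culture, against 824 (knockout) and 706 (wild type) in separate culture. Galns, a sulfatase of keratan and chondroitin chains, read 134 (knockout) and 121 (wild type) in co-culture, against 116 (knockout) and 145 (wild type) in separate culture. It was split between the genotypes, at a log2 ratio of 0.20 in knockout and -0.26 in wild type. Neu1, the sialidase, read 94.2 (knockout) and 73.6 (wild type) in co-culture, against 75.4 (knockout) and 64.9 (wild type) in separate culture, and was tested only through values close to the floor. Of these 7 genes 1 lay above 0 and 6 below 0 in the fit, with 0 called, where 53.3% of all genes lay below 0.

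For lipids the class divided evenly, with 3 of 6 genes above 0 and 3 below 0. Npc2, the soluble carrier that hands cholesterol to the membrane, read 7501 (knockout) and 7116 (wild type) in co-culture, against 7066 (knockout) and 6816 (wild type) in separate culture. Its membrane partner Npc1 read 585 (knockout) and 634 (wild type) in co-culture, against 502 (knockout) and 559.6 (wild type) in separate culture. Npc2 and Npc1 thus each had co-culture arrays above the separate array of their own genotype, with log2 differences of 0.07 ± 0.08 for Npc2 and 0.20 ± 0.13 for Npc1 and limma's adjusted p = 0.657 and 0.399. Psap, the precursor of the saposins that assist sphingolipid breakdown, stood at 0.08 ± 0.07.

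Asah1, the acid ceramidase, read 2972 (knockout) and 2963 (wild type) in co-culture, against 3349.6 (knockout) and 3411 (wild type) in separate culture. The log2 ratio was -0.17 in knockout and -0.20 in wild type, and the fitted difference was -0.19 ± 0.07 with limma's adjusted p = 0.0982. Among the genes well above the floor alone the adjusted p was 0.0473. Grn, the precursor of the granulins, read 3226 (knockout) and 3179 (wild type) in co-culture, against 3738 (knockout) and 3341 (wild type) in separate culture.

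Lipa, the acid lipase that frees cholesterol and fatty acids, depended on the probe set. The brightest one read 473 (knockout) and 459.9 (wild type) in co-culture, against 506 (knockout) and 586 (wild type) in separate culture. The third read 262 (knockout) and 238 (wild type) in co-culture, against 366 (knockout) and 402 (wild type) in separate culture. All 3 were lower in co-culture in both genotypes.

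The membrane proteins included the steadiest members. Lamp1, a heavily glycosylated protein that lines the lysosomal membrane, read 6657 (knockout) and 6748 (wild type) in co-culture, against 6647 (knockout) and 6969.6 (wild type) in separate culture. Lamp2, its relative that also serves chaperone-mediated autophagy, read 4382 (knockout) and 4446 (wild type) in co-culture, against 4555 (knockout) and 4512 (wild type) in separate culture. The 95% interval of the co-culture difference ran from -0.18 to 0.14 for Lamp1 and from -0.19 to 0.11 for Lamp2 on the log2 scale. Laptm4a, a small transmembrane protein of late endosomes and lysosomes, had a difference of -0.09 ± 0.07.

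Scarb2, the receptor that carries beta-glucocerebrosidase to the lysosome, stood out through its second probe set. The brightest probe set read 737 (knockout) and 776 (wild type) in co-culture, against 988 (knockout) and 794 (wild type) in separate culture. The second read 319.7 (knockout) and 495 (wild type) in co-culture, against 697 (knockout) and 674 (wild type) in separate culture. In that probe set co-culture was lower 2.18-fold in knockout and 1.36-fold in wild type, and both probe sets were lower in both genotypes.

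Mcoln1, the calcium channel of the lysosomal membrane, differed most between genotypes. It read 383 (knockout) and 422 (wild type) in co-culture, against 349 (knockout) and 539 (wild type) in separate culture, so the wild-type separate culture was the high array. The genotype difference, knockout minus wild type, was -0.39 ± 0.16 on the log2 scale, with limma's adjusted p = 0.377. Its second probe set read 261 (knockout) and 295 (wild type) in co-culture, against 289 (knockout) and 291 (wild type) in separate culture, with log2 ratios of knockout over wild type of -0.18 in co-culture and -0.01 in separate culture.

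When every probe set with a mean log2 signal above the floor was fitted as a feature of its own, a choice made after seeing the data, 2 of the 56 probe sets of lysosome genes were called for culture, where 7.86% of 22363 probe sets were. They were the second probe set of Scarb2, at a log2 difference of -0.79 ± 0.14 with adjusted p = 0.000119 by limma, and the third of Lipa, at -0.62 ± 0.18 with adjusted p = 0.0240. Without the intensity trend their adjusted p was 0.239 and 0.201. For genotype 0 of the 56 were called, where 0.693% of all probe sets were.

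**Figure D3:**
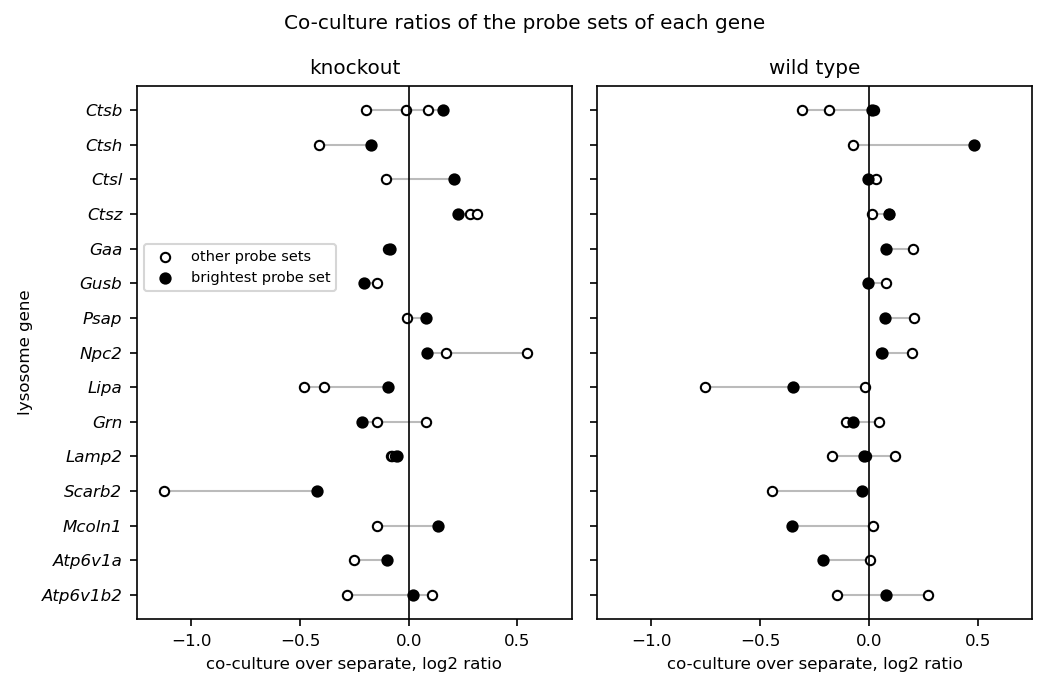
Co-culture over separate culture as a log2 ratio for each probe set above the floor in all 4 arrays, for the 15 lysosome genes with more than 1 such probe set, in knockout (left) and wild type (right). Filled points are the brightest probe set and open points the others; the probe sets of Scarb2 and Lipa lie left of 0 in both panels, while those of Ctsb, Grn and Atp6v1b2 lie on both sides.

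Of the 15 genes with several probe sets above the floor in all arrays, the probe sets pointed one way in 9 for the knockout comparison and in 6 for the wild-type one. Only 5 genes did so in both, and Gaa among them had opposite signs in the 2 genotypes. Probe sets for Ctsb ranged from -0.20 to 0.16 in knockout and from -0.31 to 0.02 in wild type.

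Of the 2 transcription factors, Tfeb could not be read, with 59.4 (knockout) and 20.7 (wild type) in co-culture, against 42.2 (knockout) and 30.4 (wild type) in separate culture, all under the floor. Tfe3 was measured well. It read 1736 (knockout) and 1707 (wild type) in co-culture, against 1582 (knockout) and 1491 (wild type) in separate culture. Both co-culture arrays were above both separate ones, the log2 difference was 0.16 ± 0.08, and limma's adjusted p was 0.1998. The 10 measured members with CACGTG in a promoter window had a median co-culture difference of -0.08, and the 14 others with a window one of -0.04.

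The proton pump genes among the members leaned the other way from the cathepsins, by their brightest probe sets. Atp6v0d1, which couples the membrane sector to the central stalk, read 1063 (knockout) and 1061 (wild type) in co-culture, against 1238 (knockout) and 1279.7 (wild type) in separate culture. Its log2 difference of -0.24 ± 0.09 had limma's adjusted p = 0.0791, the lowest for culture among the 31 members. Atp6v1a, the catalytic subunit that binds ATP, read 2123 (knockout) and 2066 (wild type) in co-culture, against 2278 (knockout) and 2392 (wild type) in separate culture. In these probe sets both genes had the co-culture arrays below the separate arrays with no overlap. The second probe set of Atp6v1a did overlap, at 482 (knockout) and 508 (wild type) in co-culture, against 575 (knockout) and 507 (wild type) in separate culture.

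Atp6ap1, an accessory protein needed for assembly of the pump, read 1743 (knockout) and 1535 (wild type) in co-culture, against 1855 (knockout) and 1777 (wild type) in separate culture. Atp6v1h, a regulatory subunit of the cytosolic sector, read 1099.7 (knockout) and 1099.9 (wild type) in co-culture, against 1222 (knockout) and 1123 (wild type) in separate culture. These too had the lower values in co-culture. A dim second probe set of Atp6v1h went the other way, at 128 (knockout) and 138 (wild type) in co-culture, against 91.9 (knockout) and 75.2 (wild type) in separate culture. Atp6v1b2, the other nucleotide-binding subunit, read 892 (knockout) and 867 (wild type) in co-culture, against 880.4 (knockout) and 821 (wild type) in separate culture, and was the pump gene with a higher signal in co-culture.

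Set against each other, the 7 cathepsins had a median log2 ratio of 0.16 and the 5 pump genes one of -0.10 in co-culture over separate culture with knockout Kupffer cells, a gap of 0.26. With wild-type Kupffer cells the medians were 0.06 for the cathepsins and -0.21 for the pump genes, a gap of 0.27. No array is used in both of these comparisons. In the additive fit 6 of 7 cathepsins lay above 0 and 4 of 5 pump genes below 0, with 0 called in either class. Of all genes 53.3% lay below 0, and among so few members these counts are only a description. The gap depended on the probe sets: as the median over all probe sets of a gene it was 0.02 in knockout and 0.13 in wild type, and over second probe sets it was 0.15 in knockout and -0.25 in wild type. Knockout over wild type gave a gap of -0.12 in co-culture, with medians of -0.08 and 0.04, and of -0.10 in separate culture, with medians of -0.04 and 0.06. Over second probe sets the gap turned to 0.15 in co-culture and was -0.15 in separate culture. For co-culture over separate culture, the other lysosome-related genes described below showed no gap like that of the members. Their 7 peptidases had medians of -0.05 in knockout and -0.02 in wild type. Their 12 pump genes had medians of -0.03 in knockout and -0.05 in wild type.

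**Figure D4:**
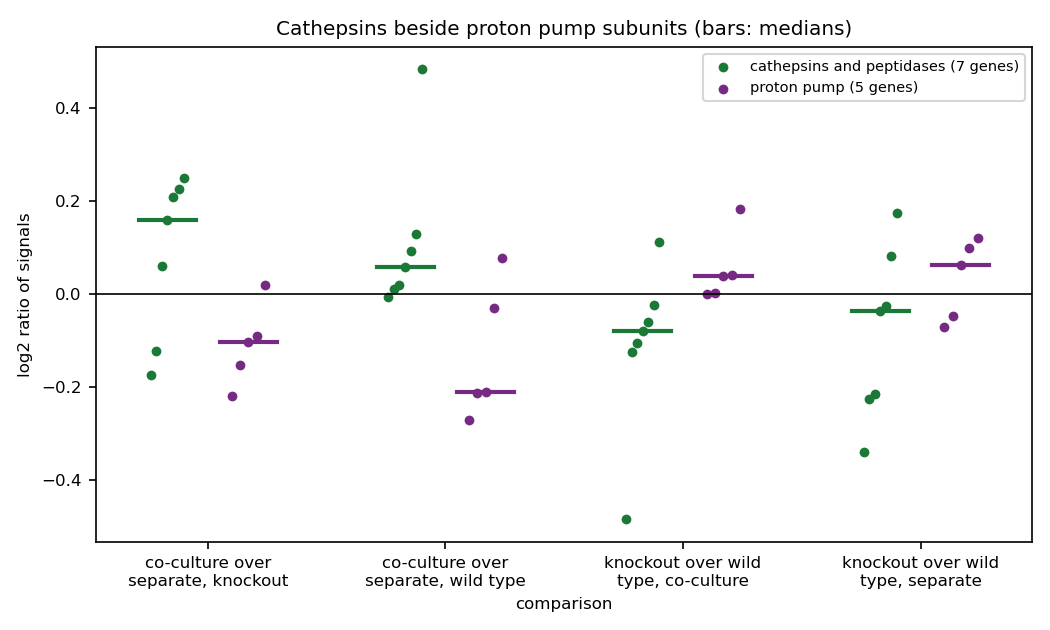
Log2 ratio of signals in the 4 comparisons for the 7 cathepsins and the 5 proton pump genes, a point for each gene by its brightest probe set and a bar at each median. The cathepsin bar is above the pump bar in both co-culture comparisons, at 0.16 against -0.10 and 0.06 against -0.21, and below it in both genotype comparisons, of which the co-culture one turns with second probe sets.

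For Dectin-2 itself the comparison of knockout with wild type passed the 25% limit in 1 of 31 members in co-culture, namely Ctsh, where 13.6% of all genes did, and in 2 of 30 in separate culture, namely Ctsl and Mcoln1, where 13.9% did. Among bright genes the shares were 6.72% in co-culture and 7.55% in separate culture, and 0 and 2 of the 28 bright members passed. By these brightest probe sets Ctsh was lower in knockout in co-culture, and Ctsl and Mcoln1 were lower in knockout in separate culture. In separate culture the brightest probe set of Ctsh was higher in knockout, at a log2 ratio of 0.17. Second probe sets gave log2 ratios of 0.19 for Ctsh in co-culture, and of 0.03 for Ctsl and -0.01 for Mcoln1 in separate culture. Some dimmer probe sets passed the 25% limit too. In co-culture they were the second of Scarb2 at -0.63, and of Atp6v1b2 the second at -0.57 and the fourth at 0.34, a bound. In separate culture they were the second of Ctsh at 0.53, the second of Lipa at 0.42 and the third of Npc2 at -0.34. The median log2 ratio of the members was close to 0 in both cultures. The additive fit called 0 of 31 members for genotype, where it called 0.533% of all genes, and 3 members, Ctsl, Ctsz and Mcoln1, had an unadjusted p under 0.05, as did 10.3% of all genes.

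Other lysosome-related genes were taken in 8 lists. Of these, 113 were on the array, 95 entered the additive fit, and 2 were called higher and 4 lower in co-culture, where 3.35% of all genes were called higher and 5.59% lower. Both higher genes were metal transporters. Slc11a1, which moves iron and manganese out of phagosomes, read 305 (knockout) and 317 (wild type) in co-culture, against 132 (knockout) and 126 (wild type) in separate culture. Its relative Slc11a2, an importer of iron at the cell surface and in endosomes, read 2102 (knockout) and 2365 (wild type) in co-culture, against 957 (knockout) and 1201 (wild type) in separate culture. The log2 differences were 1.27 ± 0.21 for Slc11a1 and 1.06 ± 0.08 for Slc11a2, with adjusted p = 0.000232 and 9.77e-10 by limma.

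Some cell type markers also differed between the cultures, and the genes of a list did not all go the same way. Of 8 pan-macrophage and leukocyte markers in the fit 6 lay above 0 and 2 below 0. Only 1 was called higher, C1qb, where 3.35% of all genes were. C1qb, a complement component, read 211 (knockout) and 264 (wild type) in co-culture, against 147 (knockout) and 100.3 (wild type) in separate culture. Of 4 mesenchymal genes 1 lay above 0 and 3 below 0, and 2 were called lower, where 5.59% of all genes were. They were the collagen gene Col3a1 at -0.52 ± 0.07 and the actin gene Acta2 at -0.66 ± 0.18, with adjusted p = 1.28e-05 and 0.0177 by limma. Without the intensity trend neither Col3a1 nor Acta2 was called. The summed signal of the macrophage list was 2146 (knockout) and 2194 (wild type) in co-culture, against 2144 (knockout) and 1862 (wild type) in separate culture. That of the mesenchymal list was 23430.5 (knockout) and 24801 (wild type) in co-culture, against 24558 (knockout) and 28230 (wild type) in separate culture. All 3 hepatocyte markers in the fit lay below 0, where 53.3% of all genes did, and 0 were called. The part of all these markers in the results for lysosome genes was not tested.

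The lower genes were all modest in size. Atp6v0a1, which lines the proton path in the membrane sector of the pump, read 780.1 (knockout) and 666 (wild type) in co-culture, against 1115 (knockout) and 775 (wild type) in separate culture, a log2 difference of -0.37 ± 0.11 with limma's adjusted p = 0.0306. Cst6, a cystatin that inhibits cathepsins and legumain, read 1464 (knockout) and 1486 (wild type) in co-culture, against 1914 (knockout) and 1869.7 (wild type) in separate culture, at -0.36 ± 0.07 and adjusted p = 0.00218. Wipi1, a lipid-binding protein of early autophagosomes, stood at -0.33 ± 0.09 with limma's adjusted p = 0.0198, and Gpnmb, a glycoprotein of melanosomes and lysosomes, at -0.30 ± 0.08 with adjusted p = 0.0212. With quantile normalization Atp6v0a1, Wipi1 and Gpnmb missed the threshold, at adjusted p = 0.0879, 0.0767 and 0.0806. Without the intensity trend all 6 missed it, with adjusted p between 0.0567 and 0.247.

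The remaining lists held little. Among 7 other peptidases 0 were called, and among 19 other hydrolases 0 were called while 14 lay below 0, with a median of -0.12. The largest differences there were Arsa, the sulfatase of sulfatide, at -0.42 ± 0.19, Naglu, an enzyme of heparan sulfate breakdown, at -0.40 ± 0.25, and Ids, another of that pathway, at -0.40 ± 0.14. Of 12 other pump genes 1 was called, Atp6v0a1, and the median was -0.03, with 5 above 0 and 7 below 0. Of 10 genes for the delivery of hydrolases 0 were called and 7 lay above 0, with a median of 0.08. They ran from Igf2r, the large mannose 6-phosphate receptor, at -0.30 ± 0.10 to Gga1, an adaptor that sorts that receptor, at 0.27 ± 0.17. Of 16 other membrane proteins 11 lay above 0, with a median of 0.10, and of 12 autophagy genes 8 did, with a median of 0.07. In a list that joined other transcription factors of the Tfeb family with genes linking lysosomes to the growth regulator mTORC1, 13 of 16 lay below 0 with a median of -0.14 and 0 called, where 53.3% of all genes lay below 0. Rragc, a Rag GTPase that recruits mTORC1, was lowest, at -0.25 ± 0.09.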

How the data were processed

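Kupffer and SL4 cell RNA was measured on 4 Affymetrix mouse arrays, 1 per group. The deposited values are signal intensities on a linear scale, made by the authors with Affymetrix Expression Console 1.4 and MAS5, per the submitters' processing notes. Probe sets were named from the platform annotation where it gives 1 symbol (34945 probe sets; 932 had several and 9160 none). The members and gene lists were chosen with earlier results of these data known.

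A gene stood for its brightest probe set. Values below the floor of 76.1 were raised to it before log2 ratios were taken, and a ratio against a raised value is a bound. The additive fit of culture and genotype used limma 3.58.1 in R 4.3.3 (lmFit, eBayes with an intensity trend) on unraised log2 signals of genes whose mean passed the floor, with Benjamini-Hochberg adjustment over 10130 genes and a threshold of 0.05. It was also run on simulated data with independent noise set by brightness and the same change in both genotypes. Such data meet the assumptions of the fit, so that run cannot show how it behaves where they fail. With 1 array per group, pairwise ratios have no test, an interaction could not be tested, and p-values may measure technical spread alone. All members are named. From each wider list the 3 genes with the highest and the 3 with the lowest mean of both co-culture ratios could be named, among genes above the floor in all arrays.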

Additional observations from a re-analysis of the deposited data

Results flagged for a closer look

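In 3 lysosome genes the co-culture change went opposite ways in the 2 genotypes and the changes lay 25% or more apart. As knockout minus wild-type log2 ratio the gap was -0.66 for Ctsh, 0.46 for Galns and 0.49 for Mcoln1. With 1 array per group the difference was not tested. Ctsh and Galns had signals between 116 and 171 in the 4 arrays. In Mcoln1 the wild-type separate culture was the high array, and its second probe set gave log2 ratios of -0.14 in knockout and 0.02 in wild type.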

How the results depend on the processing

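No paired analysis of replicates was possible because each group has 1 array. The additive fit already compares the cultures within each genotype, and with 1 array per group, leaving out an array leaves no residual degrees of freedom. Of the members' culture differences under the alternatives, 179 kept their direction and side of the threshold, 13 turned and 3 came to pass it. As the median over probe sets, the gap between cathepsins and pump genes moved to 0.018 in knockout and 0.13 in wild type, 1 member was 25% higher in both genotypes, 1 member (Scarb2, -0.51) was called for culture, and the differences turned for Ctsb (-0.19), Ctsh (-0.045), Gaa (0.025), Atp6v1b2 (-0.012) and Atp6v1h (0.68). With the second brightest probe set the gap was 0.15 in knockout, -0.25 in wild type and 0.15 for knockout over wild type in co-culture, the members' median for that comparison was -0.11, 1 member was 25% higher and 1 lower in both genotypes, 1 (Scarb2, -0.79) was called, and Ctsh (-0.24), Ctsl (-0.035), Gaa (0.054), Atp6v1b2 (-0.0052) and Atp6v1h (0.68) turned. Quantile normalization turned Gaa (0.018), and centring turned Gaa (0.022) and Lamp1 (0.0049). No turned value passed the threshold. Among genes well above the floor 1 member, Asah1, was called, and with every probe set fitted, chosen after seeing the data, 2 were. For culture, limma called 671 of 9343 genes by the median, 452 of 5290 by second probe sets, 648 after quantile normalization and 5 without the trend, against 905; for genotype 19, 57, 2 and 0, against 54, and 111 after centring and 129 among bright genes. The cause was not tested. Dim members such as Neu1, Galns and Ctsh carry the widest intervals.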
